A study of Mus musculus with 17 samples.

Results

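The 8 genes described here mark or accompany the alternatively activated state of macrophages: Mrc1, Clec10a, Mgl2, Stab1, Chil3, Il4ra, Klf4 and Tgfb1. They were taken as a given list of gene names from a count table of 55401 mouse gene identifiers, and all 8 were found. The list was chosen with earlier results of these data known. RNA of bone marrow-derived macrophages (BMDM), which are grown from marrow cells in culture, was sequenced in 17 libraries that formed 6 groups. In 3 libraries the cells carried Lyz2-Cre and floxed Kcnj2, an inward rectifier potassium channel gene, and were given conditioned medium with KCl, labelled isotonic (Kcnj2 knockout). A further 3 libraries came from floxed Kcnj2 cells without Cre under that same treatment (floxed). The other 11 libraries were of C57BL/6J cells: conditioned medium with KCl (3 libraries), conditioned medium with NaCl (2), conditioned medium alone (3) and control (3). The medium was conditioned by B16F10 cells, a mouse melanoma line. Of the C57BL/6J cells, those given conditioned medium were treated for 6 hours, and either salt was at 40 mM. The sources used here do not state what the control cells received, nor the salt dose and time of the isotonic groups. Lyz2-Cre is active in myeloid cells and is carried in the Lyz2 locus.

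Macrophages exposed to interleukin-4 or interleukin-13 signal through receptors that share the Il4ra chain and through the transcription factor Stat6, and they switch on a typical set of genes. Among its products are lectins and scavenger receptors that take up glycosylated ligands, chitinase-like proteins and enzymes of arginine and lipid metabolism. Klf4 is a zinc finger transcription factor that cooperates with Stat6 in mouse macrophages, and Tgfb1 encodes a secreted cytokine that restrains inflammation and promotes tissue repair. Tumour-associated macrophages often carry several of these markers.

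The promoters of Mrc1, Il4ra and Tgfb1 are shown because Il4ra and Tgfb1 had the closest profiles of any pair among the 8 genes, whereas Mrc1 went the other way with KCl. Each line gives the 250 bases before the RefSeq start site on GRCm38.p6, 5′ to 3′: chr2:14229164-14229413 for Mrc1, chr7:125552021-125552270 for Il4ra and chr7:25686752-25687001 for Tgfb1, all on the plus strand. Capitals mark matches to the motifs searched.
Mrc1: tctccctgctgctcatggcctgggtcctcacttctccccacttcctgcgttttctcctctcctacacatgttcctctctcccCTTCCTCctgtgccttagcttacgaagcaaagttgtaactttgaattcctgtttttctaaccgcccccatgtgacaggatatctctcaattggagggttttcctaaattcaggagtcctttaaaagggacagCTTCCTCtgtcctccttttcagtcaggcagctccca
Il4ra: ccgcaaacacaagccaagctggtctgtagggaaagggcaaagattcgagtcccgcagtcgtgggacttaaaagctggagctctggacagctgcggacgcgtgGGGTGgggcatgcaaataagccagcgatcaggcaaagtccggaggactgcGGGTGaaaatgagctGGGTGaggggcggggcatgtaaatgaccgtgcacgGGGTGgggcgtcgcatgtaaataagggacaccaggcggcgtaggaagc
Tgfb1: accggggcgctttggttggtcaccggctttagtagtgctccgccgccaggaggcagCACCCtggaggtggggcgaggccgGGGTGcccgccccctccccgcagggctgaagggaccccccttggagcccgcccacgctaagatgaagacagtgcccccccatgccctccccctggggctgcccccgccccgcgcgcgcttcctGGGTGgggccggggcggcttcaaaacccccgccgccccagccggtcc
RefSeq windows were matched for 7 of the 8 genes, all but Clec10a. Each motif was searched on both strands, and no matches overlapped. The PU.1 motif GAGGAAG, here as CTTCCTC, begins at positions -168 and -36 of Mrc1 and occurs in 10.6% of 32851 such windows of the genome. The KLF motif CACCC, or GGGTG on the other strand, occurs 4 times in Il4ra and 3 times in Tgfb1, and 52.0% of all windows hold it. The NFAT5 core TGGAAA, a sequence bound by the osmotic stress factor NFAT5, occurs once each in the windows of Chil3 and Mgl2 and in 18.6% of all windows. The STAT6 motif, TTC and GAA with 4 unspecified bases between them, occurs in 5.85% of all windows, and the NF-kB motif, GGG and TTTCC with 2 unspecified bases between them, in 1.41%, and neither has a match in the 7 windows.

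Library totals ranged from 13503869 to 19391623 counts. All 12 macrophage identity genes were detected, and their summed level lay between 25840 and 31020 CPM in every group but the knockout (14400 to 15530 CPM), in which Lyz2, one of the 12, was low. CPM here are counts divided by the TMM-scaled library size and given per 1e6. Among 8 melanoma markers 4, Tyr among them, had no count in any library, and the summed level was at most 1.27 CPM. Libraries differed in how the level depended on transcript length: the slope of log2 level on log2 exon length was -0.09, -0.07 and -0.00 in the KCl group, against 0.04 to 0.09 with conditioned medium alone, and spread from -0.15 to 0.10 in the floxed group. The part of this slope in the results was not tested beyond the fits given below. No label says whether the libraries of a group came from different animals or cultures, and the p-values cover only library-to-library spread, which may be technical. That spread was unequal. The chi-square of counts between 2 libraries, per degree of freedom, was 31.5 to 98.6 in the KCl and 27.6 to 146 in the floxed group. It was 5.95 to 37.3 in the knockout, 4.91 with NaCl, 2.66 to 5.75 with conditioned medium alone and 2.08 to 5.83 in the control. Each fit took 1 spread per gene for all its groups, so its p-values do not measure the spread of any 1 group. In bulk RNA, fewer cells of a type and less RNA per cell cannot be told apart. Tests are edgeR quasi-likelihood tests with Benjamini-Hochberg adjustment over all genes tested, called at an adjusted p under 0.05, and fold changes are log2 values followed by their standard error (SE).

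Of 40 further alternative activation genes 31 had enough counts to be tested. Against the label, 3 hallmark genes of the interleukin-4 response were at or near 0: Retnla and Chil4 had 0 counts in all 17 libraries and Arg1 had 20 counts in all. So was 1 of the 8 genes. Mgl2, a galactose-type lectin and the neighbouring paralogue of Clec10a, had 25 counts over the 17 libraries and 0 in 9 of them. It had 2, 0 and 0 counts in the knockout libraries, 2, 0 and 0 in the floxed libraries, 0, 4 and 1 with KCl, 5 and 0 with NaCl, 0 in each library with conditioned medium alone, and 3, 2 and 6 in the control. A count of 0 allows up to 3 counts, or 0.127 to 0.254 CPM depending on the library, which covers counting error only, and Mgl2 was left out of the tests by the low-count filter. Its control libraries lay above those with conditioned medium alone, but at counts too close to this limit for a fold change. The other 7 genes were tested in all 7 comparisons. Clec10a and Chil3 were also low, at 10 to 133 and 13 to 60 counts per library.

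Levels across the 6 groups are given as mean ± SD in CPM, in the order knockout, floxed, KCl, NaCl, conditioned medium and control (n = 3 each, n = 2 for NaCl). Mrc1, the mannose receptor, an endocytic lectin, was at 161 ± 15.6, 182 ± 15.4, 196 ± 25.0, 157 ± 18.6, 111 ± 4.85 and 160 ± 7.86 CPM. Conditioned medium alone was the lowest group, and its libraries did not overlap those of the next group up, NaCl, while the 5 higher groups formed a chain in which each overlapped the next. Stab1, the scavenger receptor stabilin-1, was at 90.4 ± 8.35, 89.7 ± 22.5, 91.7 ± 11.8, 107 ± 2.40, 121 ± 8.75 and 297 ± 30.8 CPM. Its control stood above all other groups, conditioned medium alone lay above NaCl and NaCl above KCl without overlap, and the KCl, knockout and floxed groups overlapped. Clec10a, a galactose-binding lectin, was at 1.15 ± 0.334, 1.04 ± 0.475, 1.98 ± 0.558, 1.20 ± 0.234, 1.61 ± 0.243 and 4.87 ± 0.876 CPM, with the control above the rest and, below it, conditioned medium alone the only group clear of the next, NaCl. Chil3, a secreted chitinase-like protein also known as Ym1, was at 2.49 ± 0.825, 1.19 ± 0.288, 1.90 ± 0.511, 3.06 ± 0.511, 2.24 ± 0.599 and 1.95 ± 0.668 CPM, and every group overlapped the next in the order of levels.

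Il4ra, the shared receptor chain for interleukin-4 and interleukin-13, was at 114 ± 12.1, 116 ± 24.7, 98.1 ± 24.0, 117 ± 0.0916, 132 ± 3.02 and 75.9 ± 5.32 CPM in the same group order. Tgfb1 was at 487 ± 40.1, 473 ± 78.9, 371 ± 77.4, 388 ± 0.183, 494 ± 6.999 and 282 ± 14.2 CPM. For both genes conditioned medium alone was the highest group and control the lowest. The Il4ra range of conditioned medium alone lay above that of NaCl, the next group, whereas the ranges of Tgfb1 in neighbouring groups overlapped. Klf4 was at 3.56 ± 0.952, 7.57 ± 1.76, 4.03 ± 0.930, 3.40 ± 0.0429, 4.02 ± 0.699 and 10.7 ± 1.45 CPM. The control and then the floxed group stood apart at the top, and the remaining 4 groups overlapped. Divided by exon length, Tgfb1 was the most abundant of the 8 genes with conditioned medium alone at a level of 98.0 ± 1.39 CPM per kb, above Il4ra (22.0 ± 0.503), Mrc1 (17.4 ± 0.761) and Stab1 (11.8 ± 0.851). Chil3 (1.37 ± 0.367), Klf4 (1.32 ± 0.229) and Clec10a (0.555 ± 0.0838 CPM per kb) were far below these.

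**Figure D1:**
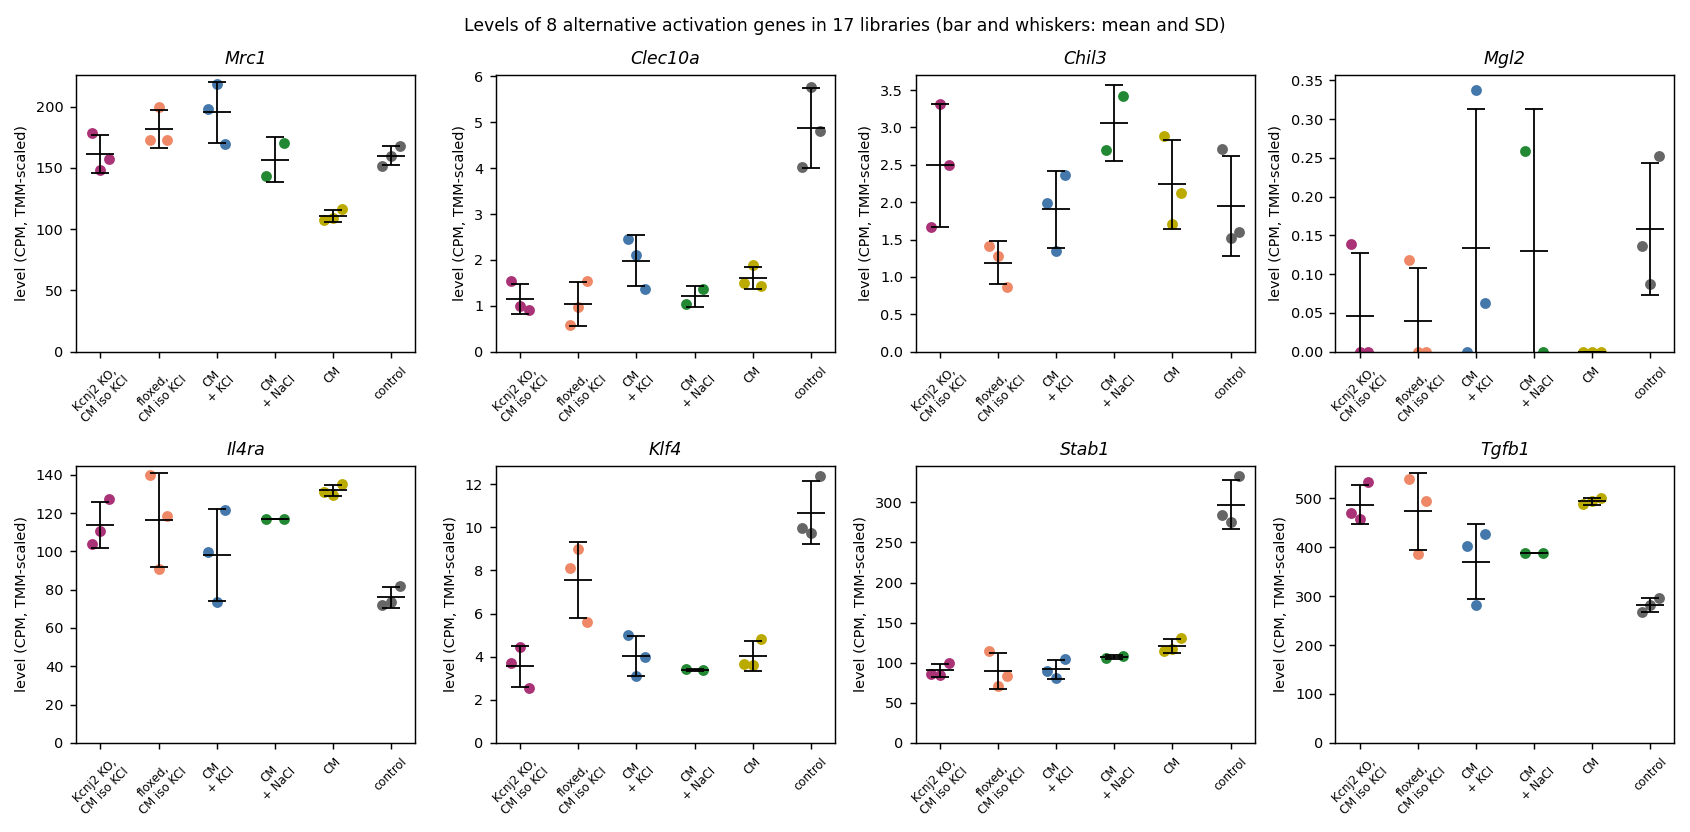
Level of each of the 8 genes (CPM, linear axis from 0) in each of the 17 libraries, grouped as Kcnj2 knockout and floxed cells in conditioned medium (CM) with isotonic KCl, CM with KCl, CM with NaCl, CM alone and control. Points are libraries, and bars with whiskers are means and SD. Stab1 was highest in the control (297 CPM on average), Tgfb1 and Il4ra lowest there, and Mrc1 lowest with CM alone (111 CPM).

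Across the 17 libraries, which fall into 6 groups, the log2 levels of Il4ra and Tgfb1 had a Pearson r of 0.93, and those of Stab1 and Clec10a an r of 0.77. Clec10a ran against Tgfb1 (r of -0.77) and Il4ra (-0.75), and Mrc1 had r values of -0.51 with Il4ra and 0.04 with Clec10a. Among 7852 protein-coding genes with at least 10 CPM on average, the profile most like that of Il4ra was Mrps18b (r of 0.97), with Psme3 next (0.97). For Tgfb1 the closest were Arhgdia (0.98) and Ino80e (0.95), for Stab1 Man2a2 and Plekhg3 (0.99 each), and for Mrc1 Wdr45 (0.93) and Pdp1 (0.92). Clec10a was nearest to Smox (0.95) and Syt11 (0.94), and Klf4 to Nup85 (0.88) and Ccn1 (0.83). Chil3 had no profile above 0.74 (Cstf1) and Mgl2 none above 0.74 (Ncoa1), with Uck1 (0.73) and Arsb (0.70) second. Mgl2 had 25 counts in all and 0 in 9 libraries, too few for its nearest genes to be read. These correlations are descriptions over 17 libraries.

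The first comparison asked how tumour conditioned medium alone changed the 8 genes relative to control cells. Mrc1, Clec10a, Stab1 and Klf4 fell, whereas Il4ra and Tgfb1 rose: 2 of the 7 tested genes rose and 4 fell. Of 15 further endocytic lectins and scavenger receptors tested, 8 rose and 4 fell. Of all 14519 genes tested 53.5% passed the threshold, 27.2% higher and 26.4% lower. The median log2 fold change of the 7 was -0.50, beside -0.04 over all genes. The Stab1 level was 115, 117 and 131 CPM with conditioned medium, against 284, 275 and 332 CPM in the control, a 2.41-fold lower level (log2 fold change -1.27, SE 0.10, adjusted p = 1.1e-07). The Clec10a level was 1.51, 1.89 and 1.44 CPM with conditioned medium, against 4.03, 5.78 and 4.81 CPM in the control, 2.97-fold lower (-1.57, SE 0.24, adjusted p = 9.5e-05). All libraries with conditioned medium lay below all control libraries for both genes. Mrc1 fell less, with 107, 109 and 116 CPM with conditioned medium, against 152, 160 and 168 CPM in the control (-0.50, SE 0.10, adjusted p = 0.00099). Klf4 had 3.64, 3.59 and 4.83 CPM with conditioned medium, against 9.96, 9.73 and 12.4 CPM in the control, 2.60-fold lower (-1.38, SE 0.18, adjusted p = 1.8e-05), and its groups did not overlap.

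Il4ra had 131, 129 and 135 CPM with conditioned medium, against 72.1, 73.6 and 82.0 CPM in the control, 1.77-fold higher (log2 fold change 0.82, SE 0.13, adjusted p = 9.3e-05 by edgeR). Tgfb1 had 487, 493 and 501 CPM with conditioned medium, against 268, 281 and 297 CPM in the control, 1.78-fold higher (0.83, SE 0.11, adjusted p = 2.7e-05). Neither gene's groups overlapped, so that 6 of the 7 tested genes had separate ranges, beside 67.8% of all genes. Chil3 had 2.89, 1.71 and 2.13 CPM with conditioned medium and 2.72, 1.52 and 1.60 CPM in the control. Its interval, from -0.42 to 0.87, spans both directions (0.22, adjusted p = 0.557). The summed level of 12 dendritic cell markers, a cell type that also carries Clec10a and Mgl2, was 70.1 to 76.8 CPM with conditioned medium and 54.2 to 60.3 CPM in the control. Most of this sum was 1 gene, Itgax, at 59.5 ± 4.95 CPM with conditioned medium and 40.0 ± 2.86 CPM in the control. Of the 7 tested, Itgax (0.60), Zbtb46 (1.13) and H2-Oa (1.55) rose and Cd24a fell (-0.35), while Flt3, not tested, had at most 4 counts in a library. H2-Oa rested on 13 to 15 counts per library with conditioned medium and 4 to 11 in the control. Among 11 neutrophil markers, of which 1 had no count in any library and Ly6g had 3 counts in all, the sum was 23.7 to 25.9 CPM with conditioned medium, against 14.6 to 17.1 CPM in the control. Of the 6 tested, Camp (2.18) and S100a8 (1.70) rose and Ltf and Mmp8 (-0.74) fell. Ltf had 0 to 1 counts per library with conditioned medium and 6 to 20 in the control, too few for a fold change. The sum of 8 mast cell and basophil markers, 1 of them without a count in any library, was 4.63 to 6.32 CPM with conditioned medium and 7.47 to 9.39 CPM in the control, and 2 of the 3 tested fell, Gata2 (-1.23) and Mcpt8 (-0.61). The 8 stromal markers, of which 1 fell, summed to 781 to 839 CPM with conditioned medium and 974 to 1163 CPM in the control. The 8 lymphocyte markers, of which 1 was tested and not called, summed to 6.53 to 10.5 CPM with conditioned medium and 10.96 to 12.4 CPM in the control. The part of these lists in the results was not tested.

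**Figure D2:**
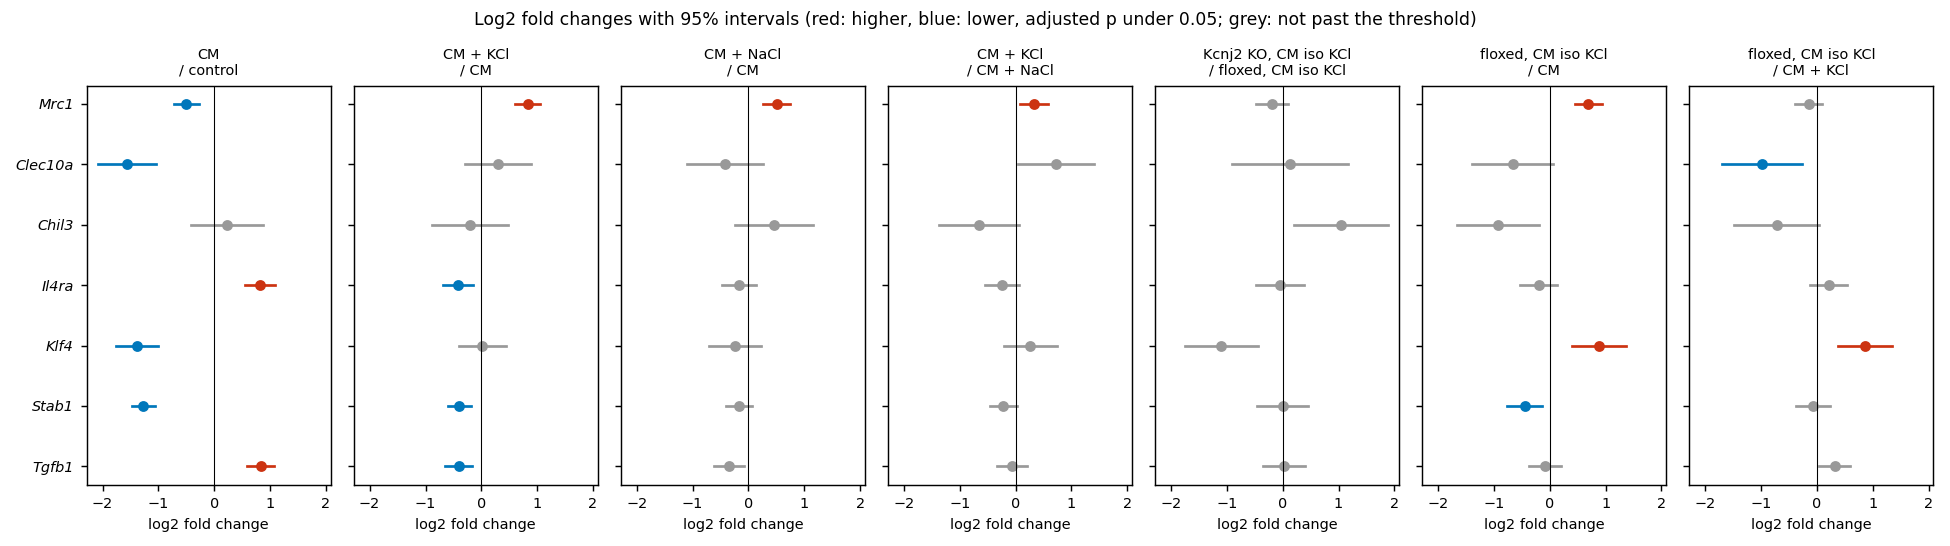
Log2 fold change (horizontal axis) of the 7 tested genes in each of 7 comparisons, with 95% intervals, where values right of 0 are higher in the group named first. Red and blue mark genes past the threshold, higher and lower. With conditioned medium (CM) against control 6 genes were called, and in the knockout against floxed cells none was.

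Genes around the 8 members moved in both directions with conditioned medium. Of 31 tested further alternative activation genes, 12 rose and 10 fell (median log2 fold change -0.17). Ccl22, a chemokine, averaged 35.6 ± 1.93 CPM with conditioned medium and 1.34 ± 0.0867 CPM in the control (4.75, SE 0.15, adjusted p = 1.4e-11 by edgeR). The arginine transporter gene Slc7a2 averaged 100.1 ± 4.27 CPM with conditioned medium and 11.3 ± 2.11 CPM in the control (3.18, SE 0.11, adjusted p = 3.9e-11), and Il1rn, the interleukin-1 receptor antagonist, also rose (2.17, SE 0.07). In the interleukin-4 and interleukin-13 receptor list 13 of 24 tested genes rose and 4 fell (median 0.59). Socs3, a feedback inhibitor of cytokine signalling, averaged 518 ± 4.40 CPM with conditioned medium and 6.62 ± 1.61 CPM in the control (6.31, SE 0.16, adjusted p = 1.5e-12), and the related Socs1 (4.10, SE 0.16) and the kinase Jak2 (2.13, SE 0.10) rose as well. The Il4ra partners Il13ra1, Il2rg and Stat6 were picked after their values were seen. The receptor chains among them, Il13ra1 (0.78, SE 0.10, adjusted p = 2.1e-05) and Il2rg (0.91, SE 0.18, adjusted p = 0.00083), rose, while Stat6 averaged 116 ± 5.72 CPM with conditioned medium and 152 ± 10.97 CPM in the control and was not called (-0.37, SE 0.15, adjusted p = 0.0548).

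In the TGF-beta pathway list, 6 of 31 tested genes rose and 18 fell with conditioned medium (median log2 fold change -0.60), opposite to Tgfb1 itself. The receptor Tgfbr1 averaged 99.4 ± 4.28 CPM with conditioned medium and 284 ± 8.78 CPM in the control (-1.49, SE 0.08, adjusted p = 1.7e-09 by edgeR). Pmepa1, a target gene of the pathway that restrains it, fell too (-2.20, SE 0.12, adjusted p = 2.3e-09). Itgb8, an integrin chain that helps release active TGF-beta, rose to 19.6 ± 1.88 CPM, against 0.447 ± 0.240 CPM in the control (5.45, SE 0.23, adjusted p = 2.0e-10). Scaling to total counts moved the median of all genes in this comparison by -0.34 and the share of called genes that rose to 24.9%, from TMM's 50.8%. All 6 calls among the 8 genes held under it, whereas the lists then had 11 genes higher and 16 lower (alternative activation), 12 and 7 (receptor signalling) and 3 and 22 (TGF-beta).

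The second comparison asked what KCl added to conditioned medium. Mrc1 rose and Il4ra, Stab1 and Tgfb1 fell: 1 of 7 tested genes was higher and 3 were lower. Of 14519 genes 53.9% were called, 26.6% higher and 27.4% lower, and the library ranges of 56.6% did not overlap. The median of the 7 was -0.21, beside -0.01 over all genes. The Mrc1 level was 198.5, 219 and 169 CPM with KCl, against 107, 109 and 116 CPM with conditioned medium alone, 1.78-fold higher (log2 fold change 0.83, SE 0.10, adjusted p = 2e-05 by edgeR). The Il4ra level was 99.6, 73.4 and 121 CPM with KCl, against 131, 129 and 135 CPM with conditioned medium alone (-0.42, SE 0.13, adjusted p = 0.0123). The Tgfb1 level was 403, 282 and 426 CPM with KCl, against 487, 493 and 501 CPM with conditioned medium alone (-0.41, SE 0.11, adjusted p = 0.00677). All KCl libraries were on one side of the conditioned medium libraries for these genes, and KCl library 2 was the lowest for Il4ra and Tgfb1. The Stab1 level was 89.2, 81.2 and 104.5 CPM with KCl, against 115, 117 and 131 CPM with conditioned medium alone (-0.39, SE 0.10, adjusted p = 0.00406), without overlap.

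Klf4 had 4.99, 3.13 and 3.98 CPM with KCl, against 3.64, 3.59 and 4.83 CPM with conditioned medium alone, and its interval ran from -0.40 to 0.44. Clec10a had 2.46, 2.11 and 1.37 CPM with KCl, against 1.51, 1.89 and 1.44 CPM with conditioned medium alone (interval -0.29 to 0.89). Chil3 had 1.99, 1.35 and 2.36 CPM with KCl, against 2.89, 1.71 and 2.13 CPM with conditioned medium alone (interval -0.88 to 0.48). The groups of these 3 genes overlapped. KCl library 3, whose length slope of -0.00 was nearest to that of the conditioned medium libraries, was also nearest to them in Mrc1, Il4ra, Stab1 and Tgfb1. With KCl library 3 as the only KCl library, a choice made after seeing the data, the spread came from the other groups alone. Those groups spread less than the KCl libraries did, so only fold changes are given for that fit. They were 0.61 for Mrc1, -0.21 for Tgfb1, -0.12 for Il4ra and -0.21 for Stab1. With the slope as a covariate only Mrc1 was called, at 0.69 (adjusted p = 0.00501 by edgeR), and Il4ra (0.06), Stab1 (0.02) and Tgfb1 (-0.06) were near 0. The slopes of the KCl and conditioned medium libraries did not overlap, so this fit cannot tell slope from KCl. The dendritic cell markers were 60.5 to 74.4 CPM in sum with KCl, against 70.1 to 76.8 CPM with conditioned medium alone. Xcr1 (3.61), Clec9a (1.72) and Cd24a (0.58) rose and Itgax, the largest part of the sum, fell (-0.83). Clec9a had only 7 to 13 counts per library with KCl and 1 to 6 with conditioned medium alone. The mast cell and basophil markers were 8.33 to 9.24 CPM in sum with KCl, against 4.63 to 6.32 CPM with conditioned medium alone, and Gata2 (1.02) and Mcpt8 (0.78) rose. The stromal markers, 584 to 820.3 CPM in sum with KCl, against 781 to 839 CPM with conditioned medium alone, had 2 higher and 3 lower of 8, the lower ones being Col1a1 (-0.94), Col1a2 (-0.62) and Col3a1 (-0.80). None of the 6 tested neutrophil markers was called, nor was the 1 tested lymphocyte marker. The part of these markers in the results was not tested.

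**Figure D3:**
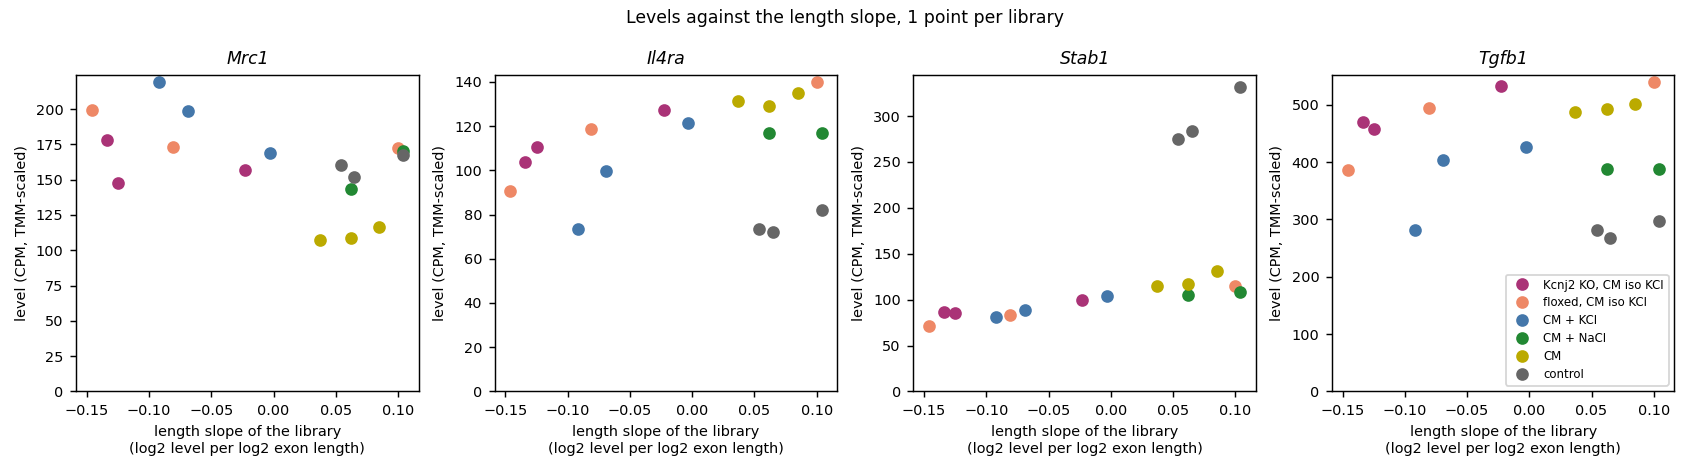
Level (CPM, linear axis from 0) of Mrc1, Il4ra, Stab1 and Tgfb1 against the length slope of each library (change in log2 level per log2 of exon length), 1 point per library, coloured by group. Within the KCl group the library with the slope nearest to 0 had the highest Il4ra (121 CPM) and Tgfb1 (426 CPM) and the lowest Mrc1 (169 CPM).

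Around Il4ra, 5 of 24 tested receptor signalling genes rose and 11 fell with KCl (median log2 fold change -0.27, beside -0.01 over all genes). Socs3 ranged from 100.3 to 139.5 CPM with KCl and from 515 to 523 CPM with conditioned medium alone (-2.13, SE 0.13, adjusted p = 3.3e-08 by edgeR). The phosphatase Ptpn6 (-0.85, SE 0.07) and the kinase Tyk2 (-1.04, SE 0.09) fell as well. So did Il13ra1 (-0.74, SE 0.10, adjusted p = 5.1e-05), Il2rg (-0.79, SE 0.18, adjusted p = 0.00246) and Stat6 (-0.97, SE 0.16, adjusted p = 0.0002), the partners picked after their values were seen. With the slope covariate Il13ra1 was at -0.60 (adjusted p = 0.0095), while Il2rg (-0.10, adjusted p = 0.741) and Stat6 (-0.34, adjusted p = 0.105) were not called. That fit called 6 genes of this list higher and 7 lower.

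Among the further alternative activation genes 11 of 31 rose and 6 fell with KCl (median 0.20). Mmp12, the macrophage elastase, averaged 1423 ± 149 CPM with KCl and 571 ± 10.3 CPM with conditioned medium alone (log2 fold change 1.33, SE 0.08, adjusted p = 4.6e-08 by edgeR). Il10, an anti-inflammatory cytokine, averaged 3.23 ± 1.21 CPM with KCl and 22.2 ± 1.62 CPM with conditioned medium alone (-2.77, SE 0.21, adjusted p = 2.2e-07), and the scavenger receptor Msr1 fell (-0.68, SE 0.07). In the TGF-beta pathway 11 of 31 genes rose and 9 fell (median -0.03). Tgfbi, a matrix protein induced by the cytokine, averaged 37.8 ± 7.58 CPM with KCl and 152 ± 3.99 CPM with conditioned medium alone (-2.00, SE 0.11, adjusted p = 1.6e-08). Nrros, which anchors latent Tgfb1 on myeloid cells (-0.86, SE 0.08), and the co-receptor Eng (-1.30, SE 0.15) fell too. The slope covariate changed the counts to 8 higher and 4 lower for the alternative activation list and to 14 higher and 4 lower for the TGF-beta list. Scaling to total counts turned the balance of both, to 8 higher and 12 lower and to 9 higher and 11 lower, and gave 3 higher and 12 lower for receptor signalling.

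NaCl gave a comparison for added salt without potassium. Mrc1 had 144 and 170.0 CPM with NaCl, against 107, 109 and 116 CPM with conditioned medium alone, 1.42-fold higher (log2 fold change 0.50, SE 0.11, adjusted p = 0.00473 by edgeR), and was the only call among the 7 genes, where 28.7% of 14519 genes were called, 13.7% higher and 14.9% lower. It was not called without NaCl library 2 (0.37, adjusted p = 0.0956). Tgfb1 had 388 CPM in both NaCl libraries, against 487, 493 and 501 CPM with conditioned medium alone (-0.35, SE 0.12, adjusted p = 0.0524). Il4ra had 117 CPM in both NaCl libraries, against 131, 129 and 135 CPM with conditioned medium alone (-0.17, SE 0.14, adjusted p = 0.400). Stab1 had 105 and 109 CPM with NaCl, against 115, 117 and 131 CPM with conditioned medium alone (-0.18, SE 0.11, adjusted p = 0.264). The ranges of 6 of the 7 genes did not overlap between these groups, and neither did those of 60.7% of all genes tested. Chil3, the exception, had 2.70 and 3.42 CPM with NaCl, against 2.89, 1.71 and 2.13 CPM with conditioned medium alone. Clec10a (1.04 and 1.37 CPM with NaCl) and Klf4 (3.43 and 3.37 CPM) lay just below conditioned medium alone and were not called, with adjusted p = 0.364 and 0.452. The median of the 7 was -0.175, beside -0.01 over all genes. Both salt comparisons, and that with control, share the conditioned medium libraries.

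The lists around the 8 genes also changed in both directions with NaCl. In the receptor list 4 of 24 genes rose and 6 fell (median 0.01), Socs3 (-1.21, SE 0.14), Ptpn6 (-0.67, SE 0.07) and Socs1 (-1.11, SE 0.15) by the smallest p-values. Of the alternative activation list 10 of 31 rose and 3 fell (median 0.05), with Mmp12 at 1263 ± 0.485 CPM with NaCl (n = 2) and 571 ± 10.3 CPM with conditioned medium alone, and Il10 at 3.94 ± 0.0837 CPM with NaCl and 22.2 ± 1.62 CPM with conditioned medium alone. Clec7a, the beta-glucan receptor dectin-1, rose (0.63, SE 0.08, adjusted p = 6.8e-05 by edgeR). Of the TGF-beta list 8 of 31 rose and 4 fell (median 0.24), with Tgfbi (-2.34, SE 0.13), Nrros (-0.74, SE 0.09) and Eng (-1.06, SE 0.17) lower. These are the same 3 genes that the naming rule chose for KCl. Of the marker lists, 2 dendritic cell, 1 mast cell or basophil and 3 stromal genes rose and 1 neutrophil gene fell with NaCl, and their part in these results was not tested.

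KCl set directly against NaCl tests the difference between the salts at the same 40 mM. Mrc1 was the only gene of the 7 called, where 31.6% of 14519 genes were, 15.4% higher and 16.2% lower. It had 198.5, 219 and 169 CPM with KCl, against 144 and 170.0 CPM with NaCl (log2 fold change 0.33, SE 0.12, adjusted p = 0.0457 by edgeR), and the groups overlapped. Ranges did not overlap for 2 of the 7 genes, Chil3 and Stab1, and for 51.2% of all genes. The KCl libraries spread more than the NaCl libraries, at a chi-square per degree of freedom of 31.5 to 98.6 against 4.91. The fit took 1 spread per gene for all its groups, so its p-values do not measure the KCl spread. A fit of the 2 groups alone called none of the 7 genes and few genes in all. The same limit holds for the list calls between the salts below. This Mrc1 call was lost without KCl library 1 (0.33, adjusted p = 0.0984) or KCl library 2 (0.22, adjusted p = 0.106). It was also lost without NaCl library 1 (0.20, adjusted p = 0.338) or NaCl library 2 (0.45, adjusted p = 0.073), where the remaining NaCl library was assumed to vary like the other groups. With KCl library 3 alone the Mrc1 fold change was 0.11. Intervals of the other genes ran from -0.55 to 0.06 for Il4ra, -0.45 to 0.02 for Stab1, -0.33 to 0.20 for Tgfb1, -0.21 to 0.74 for Klf4, 0.04 to 1.40 for Clec10a and -1.37 to 0.06 for Chil3. Clec10a, at 2.46, 2.11 and 1.37 CPM with KCl and 1.04 and 1.37 CPM with NaCl, had an unadjusted p of 0.0404 in the same edgeR fit and an adjusted p of 0.098. The median of the 7 was -0.06, beside -0.04 over all genes.

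In the receptor list 2 of 24 genes were higher with KCl and 7 lower than with NaCl (median log2 fold change -0.34), Tyk2 (-0.86, SE 0.09), Socs3 (-0.92, SE 0.14) and Ptpn1 (-0.65, SE 0.15) among them. The slope covariate left 1 higher and 0 lower, in a fit that cannot tell slope from the difference between the salts. In the TGF-beta list 1 gene was higher and 4 were lower (median -0.15), with Acvrl1 (-0.67, SE 0.12), Tgfbr2 (-0.57, SE 0.13) and Itgb8 (-0.67, SE 0.18) named by the rule, and with the covariate 2 were higher and 0 lower. In the alternative activation list 3 were higher and 4 lower (median -0.15), led by Batf3 (1.49, SE 0.27), Trem2 (0.44, SE 0.09) and Msr1 (-0.37, SE 0.08), and with the covariate 0 were called. Of the marker lists, 1 dendritic cell gene was higher with KCl and 4 stromal genes were lower than with NaCl, and their part in these results was not tested.

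**Figure D4:**
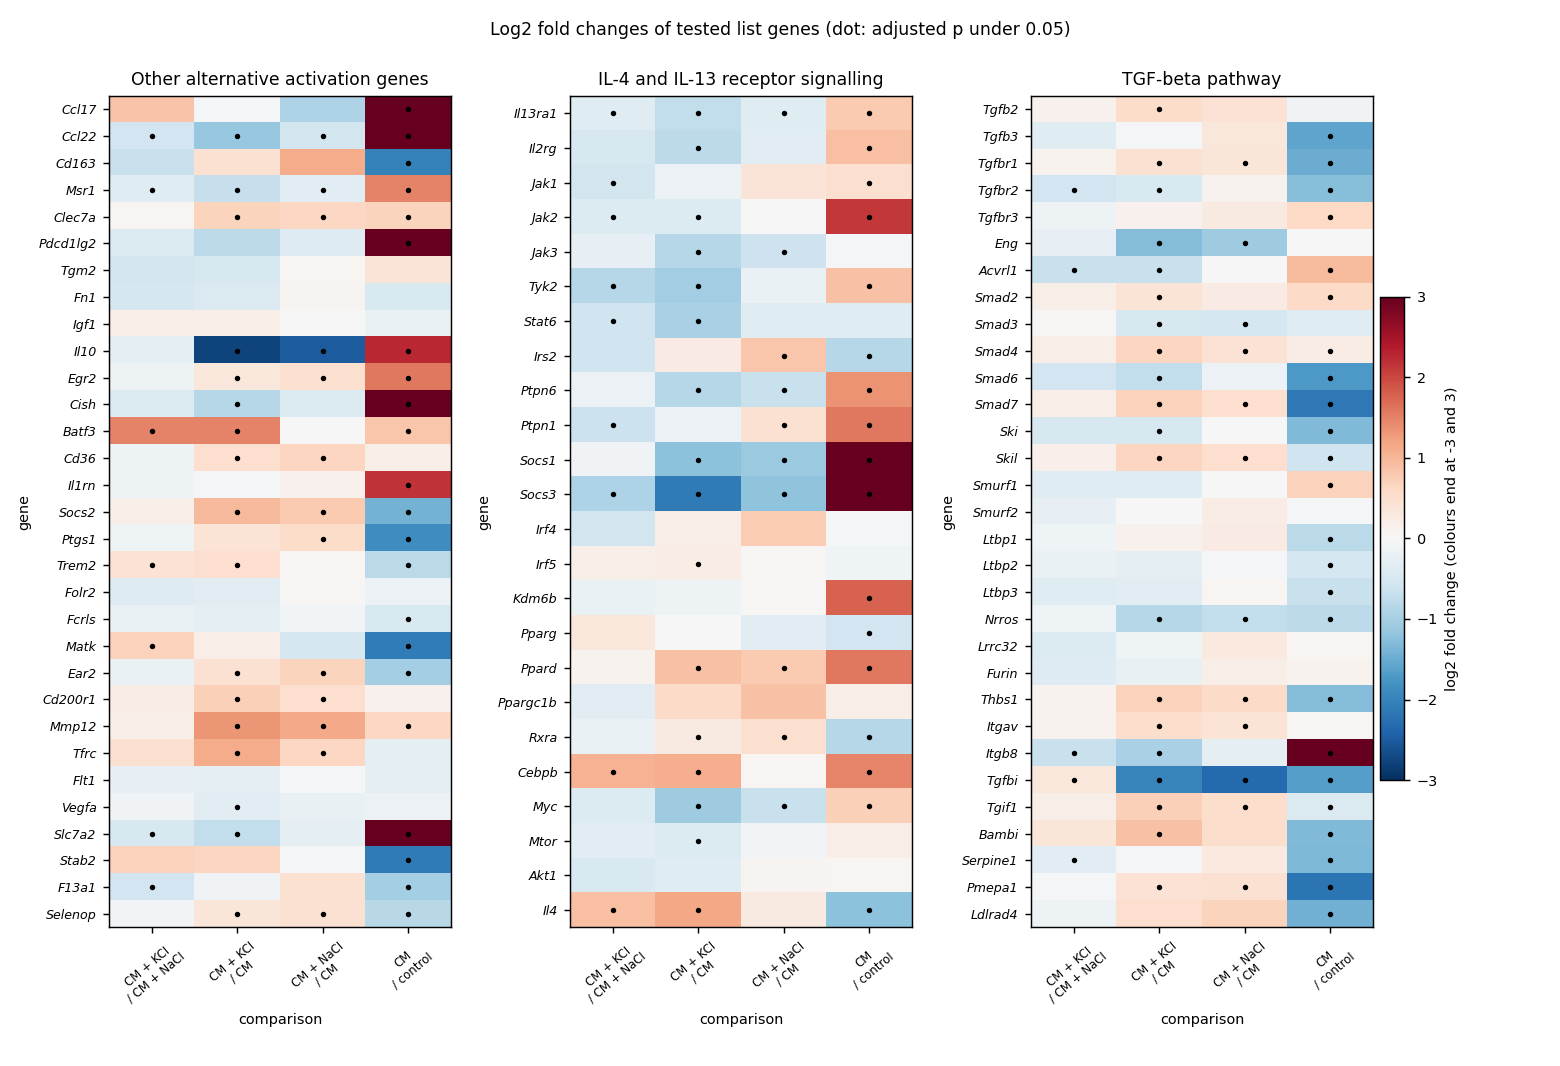
Log2 fold change (colour, ending at -3 and 3) of the tested genes of 3 lists, 1 row per gene, in 4 comparisons of C57BL/6J libraries, where CM is conditioned medium and the group named first is the numerator. A dot marks an adjusted p under 0.05. With CM against control 13 of 24 receptor signalling genes rose and 18 of 31 TGF-beta pathway genes fell.

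The knockout comparison asked whether Kcnj2 affects the 8 genes in isotonic KCl. Kcnj2 itself had 19.97, 24.8 and 30.0 CPM in the knockout libraries, against 172, 140.1 and 149.5 CPM in the floxed libraries (log2 fold change -2.64, SE 0.19, adjusted p = 0.015 by edgeR). Lyz2, whose locus carries Cre, had 7510, 8525 and 7316 CPM in the knockout, against 19710, 24590 and 23520 CPM in the floxed cells (-1.55, SE 0.15, adjusted p = 0.0593). No gene of the 8 was called: 0 of 7 tested, where 0.0156% of 12782 genes (2 genes, or 0.00782% in each direction) passed in edgeR, 716 had an unadjusted p under 0.05 and DESeq2 called 121. Of the 7 genes, 2 had an unadjusted p under 0.05, and the median log2 fold change of the 7 was -0.001, beside -0.003 over all genes.

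Klf4 was the lower of these, with 3.69, 4.45 and 2.56 CPM in the knockout, against 8.10, 9.0 and 5.61 CPM in the floxed libraries (log2 fold change -1.10, SE 0.28, unadjusted p = 0.00548, adjusted p = 0.355 by edgeR). Chil3 was the higher, with 1.67, 3.32 and 2.49 CPM in the knockout, against 1.42, 1.29 and 0.868 CPM in the floxed libraries (1.05, SE 0.35, unadjusted p = 0.0212, adjusted p = 0.631). The groups did not overlap for these 2 genes, nor for 11.2% of all genes tested. The knockout libraries of Klf4 were each under the lowest floxed library, yet they rested on 39 to 67 counts each. In these 6 libraries the summed dendritic cell markers were at 79.0 to 92.9 CPM in the knockout and 51.8 to 81.7 CPM in the floxed cells, the neutrophil markers at 24.9 to 31.3 CPM in the knockout and 14.0 to 29.4 CPM in the floxed cells, and the 8 stromal markers at 306 to 381 CPM in the knockout and 489 to 747 CPM in the floxed cells. The summed mast cell and basophil markers were at 3.93 to 5.84 CPM in the knockout and 6.33 to 9.98 CPM in the floxed cells. The lymphocyte markers were at 4.94 to 7.87 CPM in the knockout and 4.39 to 11.8 CPM in the floxed cells. No tested gene of these lists was called, where 0.0156% of all genes were. The part of these markers in the results was not tested.

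The other 5 genes overlapped between knockout and floxed libraries. Mrc1 had 178, 148 and 157 CPM in the knockout, against 173, 199.6 and 173 CPM in the floxed cells, with an interval of -0.48 to 0.10. Il4ra had 104, 110.4 and 127 CPM in the knockout, against 139.9, 90.6 and 119 CPM in the floxed cells (interval -0.48 to 0.39). Stab1 had 86.1, 85.0 and 99.98 CPM in the knockout, against 115, 71.4 and 82.9 CPM in the floxed cells (interval -0.46 to 0.45). For Il4ra and Stab1 the floxed libraries spread more widely than the knockout libraries, and an unadjusted 95% interval still allows changes of about the size seen with KCl. Tgfb1 had 469, 458 and 532 CPM in the knockout, against 539, 386 and 494 CPM in the floxed cells (interval -0.35 to 0.40), and Clec10a had 1.53, 0.996 and 0.918 CPM in the knockout, against 0.591, 0.983 and 1.54 CPM in the floxed cells (interval -0.90 to 1.17). With the slope covariate Klf4 (-1.13, adjusted p = 0.00269) and Mrc1 (-0.22, adjusted p = 0.040) were called, in a fit that called 1307 genes on 6 libraries. No gene of the receptor, TGF-beta or alternative activation lists was called in the edgeR fit without it, whereas with it 9 of 29 alternative activation genes were higher and 4 lower, 5 and 7 of 31 in the TGF-beta list, and 0 and 2 of 25 in the receptor list.

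The floxed cells in isotonic KCl differ from the C57BL/6J groups in strain and in treatment, which cannot be told apart. Against conditioned medium alone, Mrc1 and Klf4 were higher and Stab1 lower, 3 of 7 genes where 15.3% of 14676 were called, 8.2% higher and 7.09% lower. Ranges of 4 of the 7 genes, Chil3 the fourth, and of 29.1% of all genes did not overlap. Mrc1 had 173, 199.6 and 173 CPM in floxed cells, against 107, 109 and 116 CPM with conditioned medium alone (log2 fold change 0.69, SE 0.11, adjusted p = 0.0009 by edgeR). Klf4 had 8.10, 9.0 and 5.61 CPM in floxed cells, against 3.64, 3.59 and 4.83 CPM with conditioned medium alone (0.89, SE 0.23, adjusted p = 0.0174). Both were above conditioned medium alone in 3 of 3 libraries. Stab1 had 114.8, 71.4 and 82.9 CPM in floxed cells, against 115.0, 117 and 131 CPM with conditioned medium alone (-0.45, SE 0.15, adjusted p = 0.0493), and lost its call without conditioned medium library 1 (adjusted p = 0.0838), 2 (0.0973) or 3 (0.167) and without floxed library 2 (0.209) or 3 (0.170). Klf4 lost its call without conditioned medium library 1 (0.0689) or 2 (0.0747) and without floxed library 2 (0.0651). A fit of the 2 groups alone called neither Klf4 (adjusted p = 0.0858) nor Stab1 (0.200). With floxed library 1, the only one with a positive length slope, as the only floxed library, Stab1 was at -0.07. The spread in that fit came from the other groups. The floxed libraries spread more than those with conditioned medium alone, so no call is given.

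Of the lists, the alternative activation genes were 6 higher and 1 lower of 31 in floxed cells than with conditioned medium alone, with Clec7a (log2 fold change 1.00, SE 0.08), Il1rn (0.63, SE 0.07) and Mmp12 (0.52, SE 0.08) named. The receptor list had 1 higher and 4 lower of 25, with Ppard (0.52, SE 0.14), Socs3 (-0.71, SE 0.14) and Jak3 (-0.67, SE 0.14). The TGF-beta list had 3 higher and 6 lower of 31, and Tgfbi averaged 36.0 ± 6.41 CPM in floxed cells and 152 ± 3.99 CPM with conditioned medium alone (-2.10, SE 0.13, adjusted p = 2.1e-07 by edgeR). With all floxed libraries the median log2 fold changes of these lists were 0.11, -0.11 and -0.31 in the same order. With floxed library 1 as the only one they were 0.155, 0.136 and 0.046.

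Against C57BL/6J cells in conditioned medium with KCl, the floxed cells had higher Klf4 and lower Clec10a, 2 of 7 genes where 27.8% of 14676 were called, 15.4% higher and 12.3% lower. Ranges of 1 of the 7 genes and of 30.1% of all genes did not overlap. Klf4 had 8.10, 9.0 and 5.61 CPM in floxed cells, against 4.99, 3.13 and 3.98 CPM with KCl, 1.82-fold higher (log2 fold change 0.86, SE 0.23, adjusted p = 0.0108 by edgeR) and without overlap. Clec10a had 0.591, 0.983 and 1.54 CPM in floxed cells, against 2.46, 2.11 and 1.37 CPM with KCl (-0.98, SE 0.34, adjusted p = 0.0419), with overlap. The Clec10a call was lost without KCl library 1 (adjusted p = 0.156) or 2 (0.0903), and without floxed library 1 (0.150) or 2 (0.0731). A fit of the 2 groups alone called neither Klf4 (adjusted p = 0.0915) nor Clec10a (0.208). Mrc1 (-0.15), Il4ra (0.21), Stab1 (-0.07), Tgfb1 (0.32) and Chil3 (-0.72) were not called. In the receptor list 9 of 25 genes were higher in floxed cells and 1 lower, with Il13ra1 at 62.2 ± 5.39 CPM, against 36.8 ± 6.05 CPM with KCl (0.72, SE 0.10, adjusted p = 0.00011), and Socs3 (1.42, SE 0.14) and Ptpn6 (0.58, SE 0.07). In the TGF-beta list 2 of 31 were higher and 11 lower, with Nrros (0.90, SE 0.10), the TGF-beta activator Thbs1 (-1.19, SE 0.11) and the integrin chain Itgav (-0.61, SE 0.07) named. In the alternative activation list 9 of 31 were higher and 6 lower, with Ccl22 (1.41, SE 0.13), Il1rn (0.65, SE 0.07) and Mmp12 (-0.82, SE 0.08).

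Some counts may include reads of other genes. Of the 50-base stretches in annotated transcripts of Clec10a 8.49% also occur in Mgl2, and of those in Chil3 16.9% occur in Chil4 and 13.3% in the predicted gene Gm6522. Over all libraries Mgl2 had 25 counts and Chil4 had 0. Il4ra shares 571 exonic bases with an antisense gene, Gm44876, which had 0 counts, and Stab1 shares 112 with Nt5dc2 on the opposite strand, which had 7465 counts beside 42593 for Stab1. The strand setting of the counting is not given in the sources used here.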

How the data were processed

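The authors deposited 1 table of raw, unnormalized counts, with Ensembl gene identifiers in rows and 17 RNA-seq libraries in columns. Aligner, counter, build, annotation and strandedness: not given in the sources used here. Per the submitters' processing notes DESeq2 1.30.1 was used, for a purpose they do not state. Libraries were grouped by their treatment and strain labels. Symbols and exon lengths came from GENCODE M21 (GRCm38). The 260 identifiers without a symbol held 0.0121% of counts and were kept as genes.

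Counts were tested with edgeR 4.0.16 in R 4.3.3 (quasi-likelihood test, TMM, filterByExpr, Benjamini-Hochberg adjustment over all genes tested). One fit held the 11 C57BL/6J libraries, one the 6 isotonic libraries and one all 17, for contrasts between strains. Scripts were tested on simulated data. Alternatives were other scalings, DESeq2 1.42.0, other low-count filters, fits of the 2 groups alone, the length slope as a covariate, a replicate block and leaving out each library.

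The 8 genes and all lists were chosen with earlier results of these data known. Named from each of 5 lists, per comparison, were up to 3 called genes with the smallest p and a mean of at least 5 CPM in 1 group. For likeness, 2 genes with the highest correlation were named per gene.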

Additional observations from a re-analysis of the deposited data

How the results depend on the processing

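Of 49 fold changes of the 8 genes over 7 comparisons, settings other than leaving out a library kept direction and side of the threshold in 349 cases, gave up the call in 14, gained one in 17 and turned the direction in 25, none of them called after turning. All 6 calls with conditioned medium against control held in every setting. Scaling to total counts moved the median of all genes by -0.21 (KCl) and -0.169 (floxed) against conditioned medium and by -0.142 for KCl against NaCl. It moved the share of higher genes among those called to 32.6% from 49.3% (KCl against conditioned medium), 37.0% from 48.0% (NaCl), 30.1% from 48.6% (KCl against NaCl) and 26.1% from 53.6% (floxed against conditioned medium), and turned Chil3 with conditioned medium (-0.11), Klf4 with KCl (-0.19) and Tgfb1 in the knockout (-0.0018). The slope covariate left 4390 genes and 1 of the 8 called with KCl against conditioned medium, and turned Clec10a (-0.20), Il4ra (0.063) and Stab1 (0.016). For KCl against NaCl it left 143 genes and 0 of the 8, and turned Il4ra (0.33), Stab1 (0.26) and Tgfb1 (0.35). In the knockout it called 1307 genes and 2 of the 8, and turned Clec10a (-0.049), Il4ra (0.086) and Stab1 (0.16). For the floxed cells it turned Il4ra (0.052) and Tgfb1 (0.11) against conditioned medium and called 6531 genes against KCl. It called 4 of the 8 with NaCl. With only KCl library 3, 2 of the 8 were called against conditioned medium, and Clec10a (-0.23), Chil3 (0.079) and Klf4 (-0.021) turned. Against NaCl 2359 genes and 0 of the 8 were called, and Il4ra (0.055) and Tgfb1 (0.13) turned. With only floxed library 1, 729 genes were called against conditioned medium, and Il4ra (0.088) and Tgfb1 (0.13) turned. Both choices were made after seeing the data, and in them, as without a NaCl library, the spread of the 1 remaining library was taken from the other groups. Fits of the 2 groups alone called 6245 genes and 4 of the 8 with NaCl, 8 and 0 for KCl against NaCl, 411 and 1 for floxed cells against conditioned medium, and 1218 and 0 against KCl. DESeq2 called 2 of the 8 with NaCl, as did no filter and a stricter filter, Tgfb1 being the added gene. In the knockout DESeq2 called 121 genes and no filter 12, and Stab1 turned with RLE factors (0.0078), DESeq2 (0.011), no filter (0.0025) and the replicate block (0.025). The cause of these changes was not tested. Same-numbered libraries had correlated deviations above 0.1 in 4 of 15 pairs of C57BL/6J groups and 1 of 3 isotonic pairs, against 0 of 30 and 3 of 6 different-numbered pairs. The numbers were not used as pairs in the main fits, and whether same-numbered libraries share a source of spread was not tested. A replicate block called 3 of the 8 for KCl against NaCl, 0 genes in the knockout, and 1 of the 8 for floxed cells against KCl. Leaving out 1 library gave 2224 to 3465 genes and 0 to 1 of the 8 with NaCl, 960 to 6989 and 0 to 4 for KCl against NaCl, 0 to 14 genes in the knockout, 1081 to 5589 and 1 to 4 for floxed cells against conditioned medium, and 1 to 3 of the 8 for floxed cells against KCl. It gave ranges across 0 for Chil3 (-0.38 to 0.013) and Klf4 (-0.15 to 0.17) with KCl, for Tgfb1 between the salts (-0.16 to 0.090), for Clec10a (-0.16 to 0.55), Il4ra (-0.20 to 0.11), Stab1 (-0.14 to 0.22) and Tgfb1 (-0.10 to 0.13) in the knockout, for Tgfb1 (-0.20 to 0.053) in floxed cells against conditioned medium, and for Stab1 (-0.30 to 0.055) against KCl. The ratio of Mgl2 to Clec10a was not computed, because Mgl2 was at 0 in 9 of 17 libraries. Low counts limit Clec10a, Chil3, Klf4 and Mgl2.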

Other observations

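KLF-family and Sp factors related to Klf4 changed in both directions. With conditioned medium against control 4 of 11 rose and 3 fell, and 3 and 5 with total-count scaling. Of all genes 27.2% were higher and 26.4% lower there. The shares were 26.6% and 27.4% with KCl against conditioned medium alone, 13.7% and 14.9% with NaCl, and 15.4% and 16.2% between the salts. Klf6 averaged 721 ± 14.4 CPM with conditioned medium and 216 ± 4.04 CPM in the control (log2 fold change 1.77, SE 0.09, adjusted p = 9.4e-10 by edgeR), and Klf3 rose too (0.91, SE 0.08), while Klf10 fell (-1.23, SE 0.09). With KCl against conditioned medium alone 3 rose and 4 fell, among them Klf9 at 31.4 ± 8.22 CPM with KCl, against 10.8 ± 1.43 CPM with conditioned medium alone (1.54, SE 0.18, adjusted p = 1.2e-05), Klf16 (0.77, SE 0.10) and Klf3 (-0.86, SE 0.08). With NaCl 2 rose and 4 fell, among them Klf9 (1.00, SE 0.20), Sp3 (0.47, SE 0.10) and Klf10 (-0.79, SE 0.11). KCl against NaCl gave 3 higher and 2 lower, with Klf16 (0.61), Klf11 (1.11) and Klf3 (-0.43) named, with 2 and 3 under total-count scaling and 0 called with the slope covariate. In floxed cells Klf9 was higher than with conditioned medium alone (1.15, SE 0.18), and Klf7 (1.498, SE 0.20), Klf3 (0.64) and Klf16 (-0.71) differed from C57BL/6J cells with KCl.

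Among further endocytic lectins and scavenger receptors 8 of 15 tested genes rose and 4 fell with conditioned medium, where Stab1, Mrc1 and Clec10a had fallen. Of all genes 27.2% were higher and 26.4% lower there. The shares were 26.6% and 27.4% with KCl against conditioned medium alone, 13.7% and 14.9% with NaCl, and 15.4% and 16.2% between the salts. Clec4e, the lectin Mincle, averaged 2188 ± 22.4 CPM with conditioned medium and 33.1 ± 3.45 CPM in the control (log2 fold change 6.07, SE 0.09, adjusted p = 2.1e-14 by edgeR). Marco, a scavenger receptor for bacterial and particulate ligands, averaged 941 ± 60.0 CPM with conditioned medium and 14.5 ± 1.66 CPM in the control (6.05, SE 0.17), and Ly75 rose too (2.07, SE 0.08). With KCl against conditioned medium alone 6 rose and 3 fell, whereas total-count scaling gave 3 and 7. The median log2 fold change of the list was -0.004, and 0.013 with KCl library 3 alone. Marco averaged 71.0 ± 15.1 CPM with KCl (-3.72, SE 0.15, adjusted p = 1.7e-09), Clec5a fell (-1.11, SE 0.10), and Clec4d averaged 3923 ± 624 CPM with KCl and 2010 ± 102 CPM with conditioned medium alone (0.98, SE 0.11). With NaCl 5 rose and 3 fell (4 and 5 with total-count scaling), with Marco at 124 ± 15.3 CPM (-2.93, SE 0.17), Clec4n (0.64) and Colec12 (0.63) named. Marco (-0.79, SE 0.15, adjusted p = 0.0035) and Clec5a (-0.64, SE 0.11) were lower and Cd207 (0.53, SE 0.12) was higher with KCl than with NaCl, among 5 higher and 3 lower of this list (2 and 5 with total-count scaling). In floxed cells Marco averaged 588 ± 160.4 CPM, against 71.0 ± 15.1 CPM in C57BL/6J cells with KCl (3.002, SE 0.20, adjusted p = 6.8e-08), a contrast in which strain and treatment cannot be told apart.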
